A study of Mus musculus with 20 samples.

Results

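The proteasome genes described here were the rows of the authors' tables whose symbol begins with Psm, followed by a letter from a to g and a digit. The rule took 50 of 24411 genes. They comprised 8 core alpha genes, 7 core beta genes, 7 immunoproteasome genes, 9 base genes, 8 lid genes, 7 assembly genes and 3 activators or inhibitors. The last of the 50, Psmc3ip, shares only the name and encodes a factor of meiotic recombination. Polyadenylated RNA had been measured in 20 samples of 7 groups, with 10 to 15 mouse oocytes or embryos pooled in each and amplified by Smart-seq2, a full-length cDNA protocol primed with oligo-dT. The F1 hybrids labelled B6CASTF1 gave 3 samples of G1 zygotes, 3 of G2 zygotes and 2 of 2-cell embryos in G2. The inbred strain C57BL/6J gave MII eggs, G1 zygotes, G2 zygotes and 2-cell embryos in G2, with 3 samples each. Eggs of both had been matured in culture after release from dbcAMP, and embryos came from in vitro fertilization and grew in KSOM medium under 5% oxygen, with no treatment named in the labels. The sources used here do not give the direction of the cross behind B6CASTF1, and no label says whether samples of 1 group had separate mothers or dates. Hence the p-values speak for the spread between these samples alone, and that spread may be technical.

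The proteasome is the protease that degrades proteins marked with ubiquitin. Its core is a stack of rings, with outer rings of alpha subunits that form the gate and inner rings of beta subunits, of which beta1, beta2 and beta5 carry the active sites. A regulatory particle caps the core: its base holds a ring of ATPases that unfold substrates, and its lid removes the ubiquitin chains. The immunoproteasome replaces the catalytic beta subunits with forms known from lymphoid cells and interferon responses. Eggs carry a store of maternal protein and RNA that is cleared as the embryo's own genome becomes active, a process in which the proteasome takes part.

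The deposited values were the authors' comparisons of consecutive stages, with no values per sample. Each level below is therefore a mean per stage implied by the strain's mean normalized count and the fold changes, in normalized counts, and its error is carried by the SE of the fold change. A value in parentheses with its SE is the log2 fold change of the later over the earlier stage, and a change was called at an adjusted p under 0.05. Relative depth was read from the smallest steps of the mean counts: the size factors were 0.642 to 1.16 in B6CASTF1 and 0.545 to 1.27 in C57BL/6J, with the C57BL/6J 2-cell libraries lowest at 0.545 to 0.883. Values without any one library cannot be given. All 12 listed oocyte genes were detected at every stage, with a summed level of 525252 in C57BL/6J MII eggs and 25418 in C57BL/6J 2-cell embryos. The 10 listed cumulus and granulosa genes summed to 302.0 to 2550.0 over the 7 groups, led by Cyp19a1 in eggs and zygotes and by Amhr2 in 2-cell embryos, and the 8 listed sperm genes to 25.2 to 189.6. Every change is read against the authors' normalization, so a change in RNA per embryo and a change in the share of a transcript cannot be told apart.

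Of the 50 genes, 46 were tested in each B6CASTF1 comparison and 44 in each C57BL/6J comparison. The 4 that were untested in both strains were Psma8, Psmb8, Psmb9 and Psme2b, and Psmd13 and Psme2 were untested in C57BL/6J only. At the 2-cell step, 33 of 46 members rose and 7 fell in B6CASTF1, where 33.1% of all tested genes rose and 26.8% fell. In C57BL/6J 2-cell embryos 28 of 44 members rose and 4 fell, where 25% of all tested genes rose and 25.3% fell. The median log2 fold change of the tested members was 1.60 in B6CASTF1 and 1.96 in C57BL/6J, beside 0.55 and 0.17 over all genes tested. Their median SE was 0.23 in B6CASTF1 and 0.46 in C57BL/6J, beside 0.75 and 1.27 over all genes tested. A smaller SE makes a call easier, so the called shares of members and of all genes are not like for like. Of the members that rose, 26 were shared, 78.8% of the B6CASTF1 list and 92.9% of the C57BL/6J list. The same 4 members fell in both strains: Psma2, Psma7, Psmd10 and Psmg1, which made 57.1% of the B6CASTF1 list and 100% of the C57BL/6J list. The shared part of the lists over all tested genes was not worked out, so whether this overlap is particular to the members was not tested. The median log2 fold change of genes whose mean count reached 100 was 0.22 in B6CASTF1 and 0.20 in C57BL/6J at this step. Recentring on these medians turned no tested member's direction round.

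**Figure D1:**
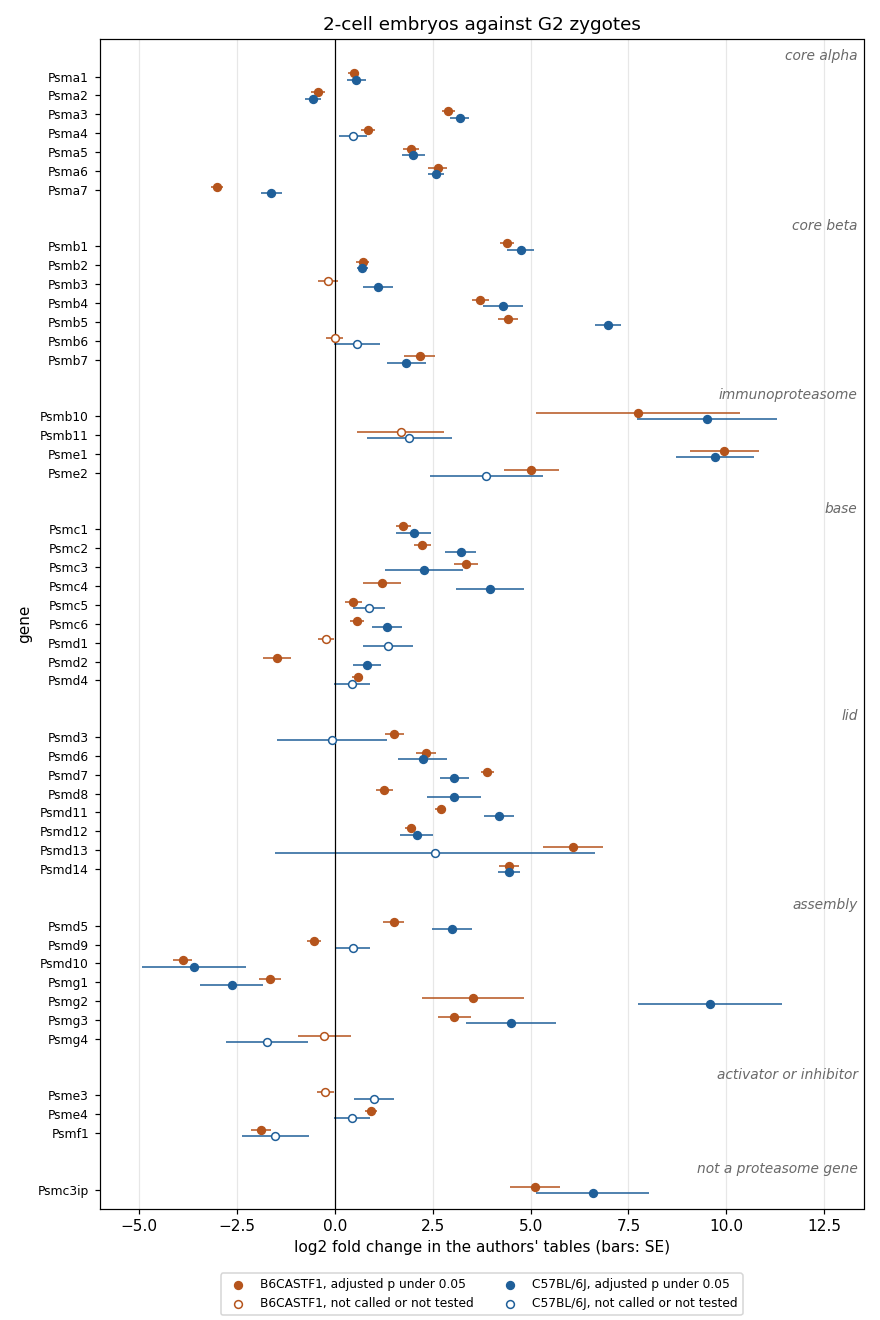
Log2 fold change of 2-cell embryos over G2 zygotes in the authors' deposited tables (x axis) for the members whose mean normalized count reached 20 in either strain (rows, by class), with bars of 1 SE; filled points have an adjusted p under 0.05 and open points were not called or not tested. Most core, base and lid genes lie right of 0 in B6CASTF1 (orange) and C57BL/6J (blue), while Psma7, Psmd10 and Psmg1 lie left of 0 in both.

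Among the core alpha genes, 5 of 7 tested rose and 2 fell at the 2-cell step in B6CASTF1, and 4 rose and 2 fell in C57BL/6J. Over all tested genes 33.1% rose and 26.8% fell in B6CASTF1, and 25% rose and 25.3% fell in C57BL/6J. Psma3, the subunit alpha7, reached 11859.8 in B6CASTF1 2-cell embryos, against 1586 in G2 zygotes (log2 fold change 2.90, SE 0.16, adjusted p = 2.7e-74, from the authors' deposited table). In C57BL/6J Psma3 reached 14590.1 in 2-cell embryos, against 1597 in G2 zygotes (3.19, SE 0.24, adjusted p = 7.2e-39, from the authors' deposited table). Psma6, the subunit alpha1, rose at every step that was measured. In B6CASTF1 its implied level was 1499 in G1 zygotes, 2747 in G2 zygotes and 16941 in 2-cell embryos. In C57BL/6J the level of Psma6 was 810.3 in MII eggs, 1874 in G1 zygotes, 3736 in G2 zygotes and 22392 in 2-cell embryos. Each of these 5 steps passed the threshold, with log2 fold changes of 0.87 (SE 0.22) and 2.62 (SE 0.25) in B6CASTF1 and 1.21 (SE 0.20), 0.99 (SE 0.20) and 2.58 (SE 0.20) in C57BL/6J, from the authors' deposited tables. Psma5, the subunit alpha5, instead fell after fertilization and rose later: it stood at 8226 in C57BL/6J MII eggs, 2325 in G1 zygotes, 2962 in G2 zygotes and 11935 in 2-cell embryos. Exons of Psma5 overlap an antisense gene, 1700010K24Rik, so its counts are uncertain where strand was not used. The same holds for 12 of the 50 members in all, the others being Psma4, Psmb7, Psmb8, Psmb9, Psmc3, Psmc3ip, Psmd1, Psmd3, Psmd9, Psmd13 and Psme1, while exons of Psmd1, Psme2b and Psmg3 overlap a gene on their own strand. Psma1, the subunit alpha6, was called at the 2-cell step in B6CASTF1 (0.49, SE 0.14, adjusted p = 0.0014) and in C57BL/6J (0.55, SE 0.24, adjusted p = 0.043) from the authors' deposited tables, and neither call held after recentring (adjusted p = 0.095 and 0.21). Psma4, alpha3, rose in B6CASTF1 (0.85, SE 0.18, adjusted p = 5.9e-06) and was not called in C57BL/6J (0.47, SE 0.35, adjusted p = 0.26) from the authors' deposited tables.

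Psma7, the subunit alpha4 (chromosome 2, 180036374 to 180042433, minus strand, GRCm38), and Psma2, alpha2, were the alpha genes that fell. Psma7 was the most abundant core transcript per kb of length in every group before the 2-cell stage. It fell to 1693 in B6CASTF1 2-cell embryos, against 13515 in G2 zygotes (-3.00, SE 0.16, adjusted p = 3.4e-80, from the authors' deposited table). Psma7 in C57BL/6J fell to 7540.4 in 2-cell embryos, against 23179 in G2 zygotes (-1.62, SE 0.27, adjusted p = 9.9e-09, from the authors' deposited table). Psma2 fell less, with a log2 change of -0.42, SE 0.19, adjusted p = 0.039 in B6CASTF1 and -0.56, SE 0.21, adjusted p = 0.015 in C57BL/6J, from the authors' deposited tables. Most of its loss in C57BL/6J came earlier, with 25383 in G1 zygotes against 50713 in MII eggs. Psma8, the germline form of alpha4, was near 0: its whole mean count in C57BL/6J equals 38 reads in 1 G1 zygote library.

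Among the core genes, the beta genes held the steepest rises. Of 7 tested, 5 rose at the 2-cell step in B6CASTF1 and 6 in C57BL/6J, and 0 fell in either, with the same 5 and 6 at an unadjusted p under 0.05. Beside them, 33.1% of all tested genes rose and 26.8% fell in B6CASTF1, and 25% rose and 25.3% fell in C57BL/6J. Psmb5, the chymotrypsin-like beta5 subunit (chromosome 14, 54614119 to 54618022, minus strand, GRCm38), reached 5295 in B6CASTF1 2-cell embryos, against 246 in G2 zygotes, a 21.5-fold rise (4.43, SE 0.27, adjusted p = 6.6e-61, from the authors' deposited table). In C57BL/6J, Psmb5 reached 3697 in 2-cell embryos, against 29.3 in G2 zygotes, a rise of 126-fold (6.98, SE 0.33, adjusted p = 2.5e-95, from the authors' deposited table). Thus the catalytic beta5 gene was among the scarcest core transcripts of the zygote. In B6CASTF1 2-cell embryos it had 5890 per kb of transcript, beside a median of 5462 over the 14 core genes. In C57BL/6J 2-cell embryos it remained the lowest of the 14 per kb. Psmb1, the non-catalytic subunit beta6, reached 12902 in B6CASTF1 2-cell embryos, against 613 in G2 zygotes (4.40, SE 0.19, adjusted p = 1.2e-118, from the authors' deposited table). In C57BL/6J it reached 28670.2 in 2-cell embryos, against 1066 in G2 zygotes (4.75, SE 0.34, adjusted p = 7.5e-42, from the authors' deposited table). Psmb4, beta7, rose alike in direction, with log2 fold changes of 3.71, SE 0.22, adjusted p = 9.5e-64 in B6CASTF1 and 4.30, SE 0.52, adjusted p = 2.5e-15 in C57BL/6J, from the authors' deposited tables.

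Psmb7, the trypsin-like beta2 subunit, rose before the 2-cell stage as well. Its level in B6CASTF1 was 109.8 in G1 zygotes, 800.0 in G2 zygotes and 3593 in 2-cell embryos. In C57BL/6J it was 42.2 in MII eggs, 196 in G1 zygotes, 1881 in G2 zygotes and 6695 in 2-cell embryos. All 5 steps were called, with log2 fold changes of 2.87 (SE 0.37) and 2.17 (SE 0.40) in B6CASTF1 and 2.21 (SE 0.51), 3.26 (SE 0.50) and 1.83 (SE 0.50) in C57BL/6J, from the authors' deposited tables; exons of Psmb7 overlap Nek6 on the other strand. The remaining catalytic gene, Psmb6, the caspase-like beta1 subunit, was already abundant and was not called at the 2-cell step: it had 3514 in B6CASTF1 2-cell embryos against 3516 in G2 zygotes, and 6486 in C57BL/6J 2-cell embryos against 4382 in G2 zygotes. Psmb2, beta4, rose by a log2 change of 0.71, SE 0.17, adjusted p = 8.2e-05 in B6CASTF1 and 0.71, SE 0.14, adjusted p = 2.5e-06 in C57BL/6J from the authors' deposited tables. Psmb3, beta3, was not called in B6CASTF1 (-0.17, SE 0.26, adjusted p = 0.58) and rose in C57BL/6J (1.11, SE 0.38, adjusted p = 0.0098) from the authors' deposited tables.

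The 14 constitutive core genes, whose products enter the particle in equal number, had very unequal transcript levels in the egg and zygote and closer ones at the 2-cell stage. Per kb of the longest coding transcript, the ratio of the highest to the lowest core gene was 205 in B6CASTF1 G1 zygotes, 42.6 in G2 zygotes and 11.1 in 2-cell embryos, where Psma7, at 1463, was then the lowest and Psma6, at 16258, the highest. C57BL/6J MII eggs ranged between 36.4 (Psmb7) and 34321 (Psma7), 944 times apart. In C57BL/6J the ratio was then 333 in G1 zygotes, 615 in G2 zygotes and 5.85 in 2-cell embryos. The SD of the log2 level per kb over the 14 genes was 2.30, 1.76 and 0.86 along the 3 stages of B6CASTF1, and 3.18, 2.55, 2.53 and 0.84 along the 4 stages of C57BL/6J. Over all genes whose mean count reached 1000 the same SD was 2.31, 2.23 and 2.51 in B6CASTF1 (3348 genes) and 2.40, 2.37, 2.28 and 2.73 in C57BL/6J (2671 genes). These spreads describe stage means and carry no test. Core genes below 1000 per kb numbered 5, 5 and 0 of 14 along the B6CASTF1 stages and 6, 5, 4 and 0 along those of C57BL/6J. Psma3, Psmb1, Psmb4 and Psmb5 were below that level in all 5 groups of eggs and zygotes. Dividing by the median transcript length, or not at all, left 2-cell ratios of 11.3 and 10.0 in B6CASTF1 and 5.04 and 7.76 in C57BL/6J.

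**Figure D2:**
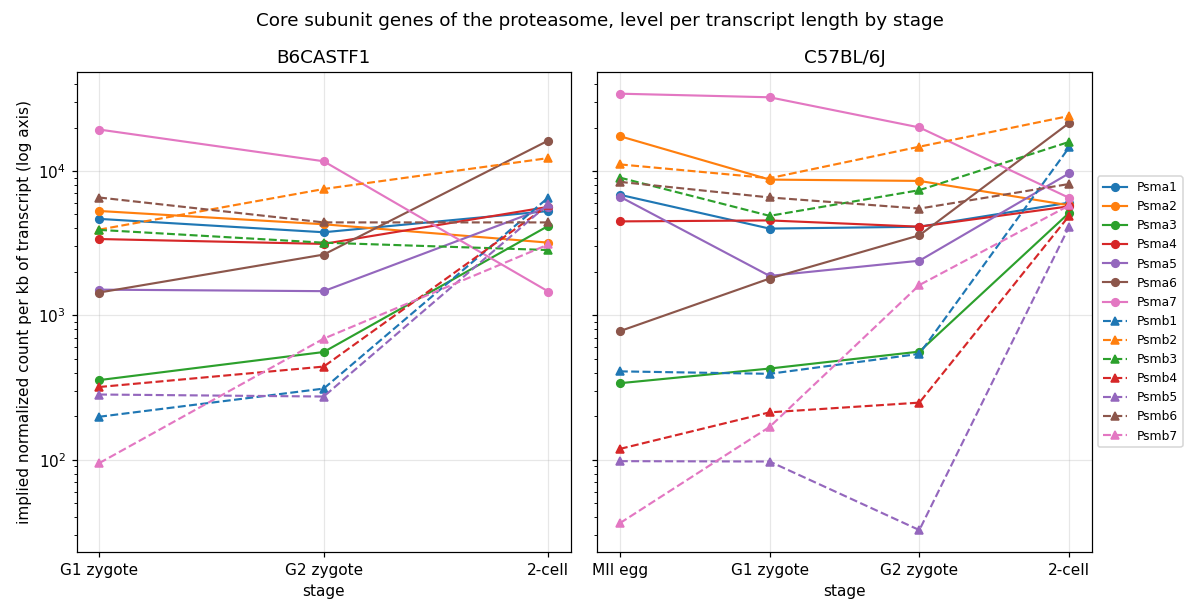
Implied normalized count per kb of transcript (log y axis) of the 14 core genes by stage (x axis) in B6CASTF1 (left) and C57BL/6J (right); circles with solid lines are alpha genes and triangles with dashed lines beta genes, and each point is a stage mean without an error bar. The lines fan out between 36.4 and 34321 in C57BL/6J MII eggs and draw together between 4112 and 24049 in C57BL/6J 2-cell embryos.

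The base genes rose in most cases. At the 2-cell step 7 of 9 rose and 1 fell in B6CASTF1, where 33.1% of all tested genes rose and 26.8% fell. In C57BL/6J 6 of 9 rose and 0 fell, beside 25% and 25.3% of all tested genes. Psmc2, the ATPase Rpt1, rose in both the G2 and the 2-cell comparison of both strains. Its level was 739.8 in B6CASTF1 G1 zygotes, 2284 in G2 zygotes and 10771 in 2-cell embryos. In C57BL/6J Psmc2 stood at 215 in MII eggs, 433 in G1 zygotes, 1266 in G2 zygotes and 11736 in 2-cell embryos. Psmc1, the ATPase Rpt2, rose at the 2-cell step by a log2 change of 1.75, SE 0.19, adjusted p = 4.7e-19 in B6CASTF1 and 2.02, SE 0.44, adjusted p = 2.5e-05 in C57BL/6J, from the authors' deposited tables. Psmc3, Rpt5, rose by 3.36, SE 0.30, adjusted p = 2.7e-27 in B6CASTF1 and by 2.28, SE 1.0002, adjusted p = 0.045 in C57BL/6J from the authors' deposited tables, and the C57BL/6J call was lost on recentring (adjusted p = 0.070). Its exons overlap Slc39a13 on the other strand. Psmc4, Rpt3, had 4927 in B6CASTF1 2-cell embryos against 2136 in G2 zygotes, and 4874 in C57BL/6J 2-cell embryos against 310.5 in G2 zygotes. Both changes of Psmc4 were called (1.21, SE 0.50, adjusted p = 0.027 in B6CASTF1 and 3.97, SE 0.87, adjusted p = 2.2e-05 in C57BL/6J, from the authors' deposited tables), the B6CASTF1 one not after recentring (adjusted p = 0.076). The 2-cell levels of Psmc4 were close, while the G2 zygote levels lay apart. Psmc6, Rpt4, was called higher in both (0.56, SE 0.18, adjusted p = 0.0029 in B6CASTF1 and 1.34, SE 0.38, adjusted p = 0.0015 in C57BL/6J, from the authors' deposited tables), and Psmc5, Rpt6, in B6CASTF1 alone at this step (0.47, SE 0.22, adjusted p = 0.049, against 0.88, SE 0.40, adjusted p = 0.058 in C57BL/6J, from the authors' deposited tables). After recentring, the B6CASTF1 calls of Psmc6 and Psmc5 were lost (adjusted p = 0.083 and 0.32).

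Psmd2, the scaffold Rpn1 that docks shuttle proteins (chromosome 16, 20651652 to 20663414, plus strand, GRCm38), was the 1 member called in opposite directions. It fell to 3251 in B6CASTF1 2-cell embryos, against 8999.9 in G2 zygotes (-1.47, SE 0.36, adjusted p = 1.2e-04, from the authors' deposited table). In C57BL/6J Psmd2 was higher at 1774 in 2-cell embryos, against 1002 in G2 zygotes (0.82, SE 0.37, adjusted p = 0.048, from the authors' deposited table), a call lost on recentring (adjusted p = 0.14). Psmd4, the ubiquitin receptor Rpn10, was called higher in B6CASTF1 (0.58, SE 0.14, adjusted p = 9.2e-05) and had 0.45, SE 0.46, adjusted p = 0.43 in C57BL/6J, from the authors' deposited tables. Psmd1, the scaffold Rpn2, was not called at the 2-cell step in either strain, but was lower in B6CASTF1 after recentring (adjusted p = 0.047).

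All 8 lid genes rose at the 2-cell step in B6CASTF1, where 33.1% of all tested genes rose. In C57BL/6J 6 of 7 tested rose, beside 25% of all tested genes. Psmd14, the deubiquitinase Rpn11 that cuts chains from substrates (chromosome 2, 61711694 to 61800376, plus strand, GRCm38), reached 8332 in B6CASTF1 2-cell embryos, against 381 in G2 zygotes (4.45, SE 0.25, adjusted p = 3.9e-71, from the authors' deposited table). Psmd14 in C57BL/6J reached 10709 in 2-cell embryos, against 490.0 in G2 zygotes (4.45, SE 0.29, adjusted p = 2.3e-52, from the authors' deposited table). The 2 estimates were nearly equal. Psmd7, its partner Rpn8, first fell in B6CASTF1 G2 zygotes and then rose to 21662 in 2-cell embryos, against 1458 in G2 zygotes (3.89, SE 0.17, adjusted p = 2.9e-115, from the authors' deposited table). In C57BL/6J Psmd7 reached 11291 in 2-cell embryos, against 1358 in G2 zygotes (3.06, SE 0.37, adjusted p = 4.2e-15, from the authors' deposited table). Psmd11, Rpn6, a clamp between lid and core, reached 21104 in B6CASTF1 2-cell embryos, against 3237 in G2 zygotes (2.70, SE 0.15, adjusted p = 4.3e-75, from the authors' deposited table). In C57BL/6J 2-cell embryos it stood at 13816, against 754 in G2 zygotes (4.20, SE 0.38, adjusted p = 6.4e-26, from the authors' deposited table). Psmd12, Psmd6 and Psmd8 (Rpn5, Rpn7 and Rpn12) rose by log2 fold changes of 1.27 to 2.34 in B6CASTF1 and 2.09 to 3.04 in C57BL/6J, from the authors' deposited tables. Psmd3, Rpn3, rose in B6CASTF1 (1.52, SE 0.24, adjusted p = 1.3e-09) and was not called in C57BL/6J (-0.06, SE 1.41, adjusted p = 0.98), from the authors' deposited tables.

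Psmd13, Rpn9, stood apart from the other lid genes by its low level. It had 743 in B6CASTF1 2-cell embryos, against 11.02 in G2 zygotes (6.08, SE 0.76, adjusted p = 9.1e-15, from the authors' deposited table). In C57BL/6J, where the authors' table gives it no p-value, Psmd13 had 53.3 in 2-cell embryos, against 9.04 in G2 zygotes. By default, DESeq2 leaves the p-value of a gene with counts blank when a library is flagged as an outlier. Such a library may have set these C57BL/6J levels, but the values of single libraries cannot be seen. Per kb, Psmd13 was the lowest lid gene in all 7 groups. Its exons overlap Sirt3 on the other strand.

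The assembly genes were called in both directions at the 2-cell step, as were all tested genes. Of 7, 3 rose and 3 fell in B6CASTF1, where 33.1% of all tested genes rose and 26.8% fell. In C57BL/6J 3 rose and 2 fell, beside 25% and 25.3% of all tested genes. Psmd10, gankyrin, a chaperone of the base (chromosome X, 140948429 to 140956728, minus strand, GRCm38), fell to 146 in B6CASTF1 2-cell embryos, against 2141 in G2 zygotes (-3.88, SE 0.24, adjusted p = 8.5e-56, from the authors' deposited table). In C57BL/6J it fell to 173 in 2-cell embryos, against 2104 in G2 zygotes (-3.61, SE 1.33, adjusted p = 0.016, from the authors' deposited table). Before that, Psmd10 had been higher in B6CASTF1 G2 zygotes than in G1 zygotes (1.27, SE 0.21, adjusted p = 2.5e-08, from the authors' deposited table), so its B6CASTF1 level was highest in G2 zygotes. Psmd5, another base chaperone, went the other way: it reached 4879 in B6CASTF1 2-cell embryos against 1721 in G2 zygotes, and 4250.2 in C57BL/6J 2-cell embryos against 532 in G2 zygotes. Both rises of Psmd5 were called (adjusted p = 7.7e-08 in B6CASTF1 and 2.4e-08 in C57BL/6J, from the authors' deposited tables). Psmd9, the chaperone p27, fell in B6CASTF1 (-0.53, SE 0.18, adjusted p = 0.0072) and was not called in C57BL/6J (0.47, SE 0.43, adjusted p = 0.38), from the authors' deposited tables.

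The chaperones of the core also split, although each acts in a pair, PAC1 with PAC2 and PAC3 with PAC4. Psmg1 (PAC1) fell to 507 in B6CASTF1 2-cell embryos, against 1590.0 in G2 zygotes, and to 360.5 in C57BL/6J 2-cell embryos, against 2234 in G2 zygotes. Its log2 fold changes were -1.65, SE 0.27, adjusted p = 6.4e-09 in B6CASTF1 and -2.63, SE 0.81, adjusted p = 0.0035 in C57BL/6J, from the authors' deposited tables. Psmg2 (PAC2), by contrast, was scarce and was called higher, at 315 in B6CASTF1 2-cell embryos against 27.2 in G2 zygotes, and at 286 in C57BL/6J 2-cell embryos against 0.375 in G2 zygotes. No fold is given for C57BL/6J, since its G2 level was under 1. Psmg3 (PAC3) reached 1526 in B6CASTF1 2-cell embryos against 184 in G2 zygotes (3.05, SE 0.43, adjusted p = 3.8e-12, from the authors' deposited table). In C57BL/6J, Psmg3 reached 1239 in 2-cell embryos against 54.4 in G2 zygotes (4.51, SE 1.15, adjusted p = 3.4e-04, from the authors' deposited table). Psmg4 (PAC4) stayed uncalled at the 2-cell step, with 88.0 in B6CASTF1 2-cell embryos against 106 in G2 zygotes and 114 in C57BL/6J 2-cell embryos against 379 in G2 zygotes.

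Psmf1, the inhibitor PI31, followed the course of Psmd10 in B6CASTF1. It had 1087 in G1 zygotes, 2428 in G2 zygotes and 659 in 2-cell embryos, called higher at the first step (1.16, SE 0.22, adjusted p = 4.7e-06) and lower at the second (-1.88, SE 0.25, adjusted p = 3.5e-13) from the authors' deposited tables. In C57BL/6J Psmf1 had 151 in MII eggs, 682 in G1 zygotes, 2199.6 in G2 zygotes and 769 in 2-cell embryos, and no step was called. Psme4, the activator PA200, rose in B6CASTF1 2-cell embryos (0.92, SE 0.15, adjusted p = 5.3e-09, from the authors' deposited table) and was not called in C57BL/6J. Psme3, the nuclear activator PA28 gamma, was not called in any of the 5 comparisons, but was lower in B6CASTF1 2-cell embryos after recentring (adjusted p = 0.047).

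**Figure D3:**
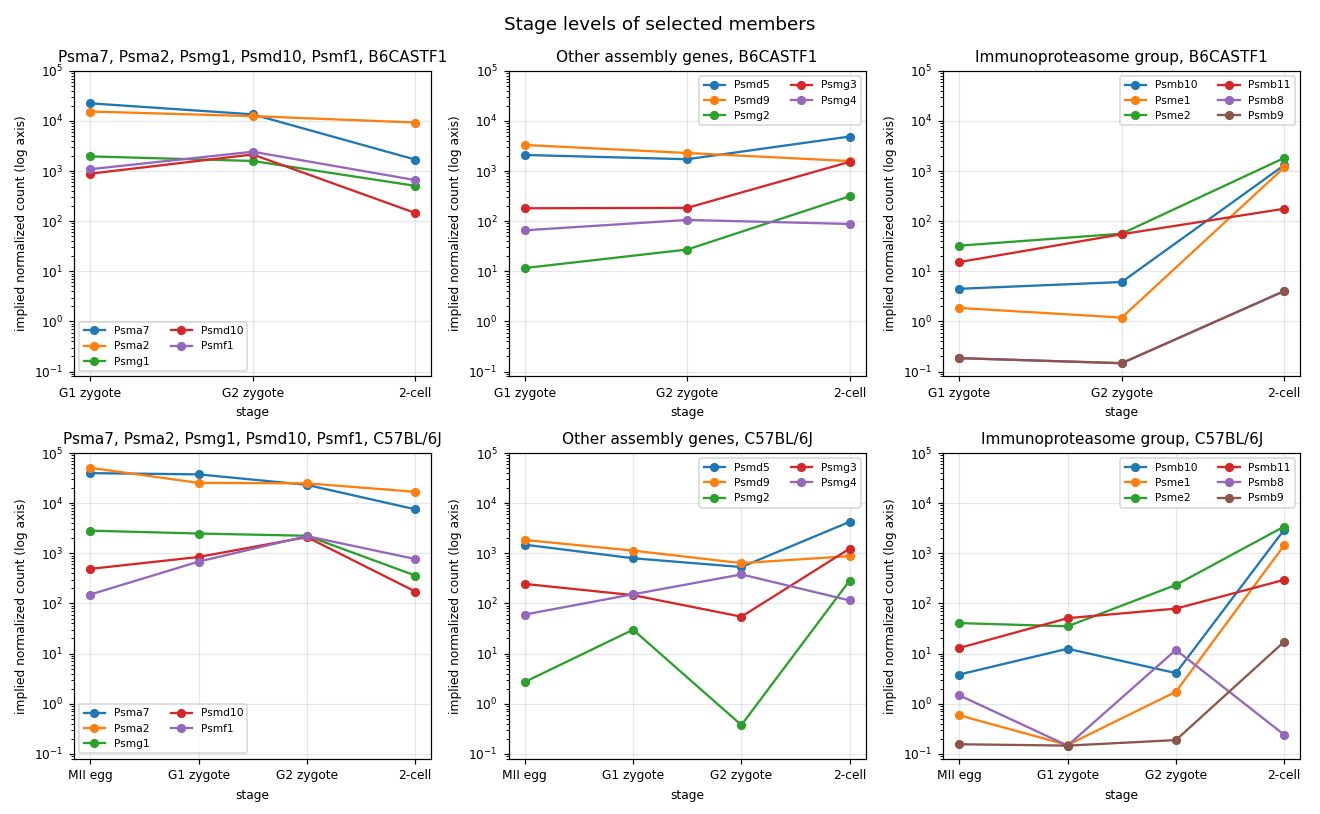
Implied normalized count (log y axis) by stage (x axis) in B6CASTF1 (top) and C57BL/6J (bottom) for members that were lower at the 2-cell stage, the other assembly genes and the immunoproteasome group; each point is a stage mean without an error bar, and levels under 1 stand for few or no reads. The points of Psmd10 and Psmf1 are highest in G2 zygotes, though their rise from G1 zygotes was called in B6CASTF1 only. Psmb10 and Psme1 stand near 0 until the 2-cell stage.

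Of the immunoproteasome genes, Psmb10, Psme1 and Psme2 in B6CASTF1 and Psmb10 and Psme1 in C57BL/6J rose at the 2-cell step, and none was called at an earlier step, where Psme1 in C57BL/6J G2 against G1 zygotes was the 1 value with an unadjusted p under 0.05 (p = 0.022, adjusted p = 0.16, from the authors' deposited table). Psmb10, beta2i, the inducible form of the trypsin-like subunit, had 1311 in B6CASTF1 2-cell embryos, against 6.12 in G2 zygotes (7.74, SE 2.60, adjusted p = 0.0059, from the authors' deposited table). In C57BL/6J Psmb10 had 2959.8 in 2-cell embryos, against 4.08 in G2 zygotes (9.50, SE 1.78, adjusted p = 6.4e-07, from the authors' deposited table). In both strains the G2 zygote level of Psmb10 was near 0 and the SE of its fold change was large. Psme1, PA28 alpha, a cap that opens the core without ATP, had 1179 in B6CASTF1 2-cell embryos against 1.19 in G2 zygotes, and 1442 in C57BL/6J 2-cell embryos against 1.73 in G2 zygotes. Both were called (adjusted p = 3.9e-29 in B6CASTF1 and 6.7e-21 in C57BL/6J, from the authors' deposited tables), and no fold is given for levels this near 0. Exons of Psme1 overlap Emc9 on the other strand. Psme2, its partner PA28 beta, had 1826 in B6CASTF1 2-cell embryos, against 56.3 in G2 zygotes (5.02, SE 0.70, adjusted p = 4.8e-12, from the authors' deposited table). In C57BL/6J the authors' table gives Psme2 no p-value. Its implied level there was 3421 in 2-cell embryos, against 234 in G2 zygotes and 35.0 in G1 zygotes. These levels carry no test. As for Psmd13, the blank p-value may mark an outlying library, which may have set these levels. The values of single libraries cannot be seen. Psme2 has a copy, Psme2b, and reads can be divided between them.

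The other inducible catalytic genes had few reads or no call. Psmb8 (beta5i) and Psmb9 (beta1i) each amounted to 9 reads in 1 B6CASTF1 2-cell library, and Psmb9 in C57BL/6J to 46 reads in 1 2-cell library, and neither gene has an adjusted p-value in either strain. Psmb8 had implied levels of 0.24 in C57BL/6J 2-cell embryos and 11.9 in G2 zygotes. Psmb11, the thymic beta5t form, had 177 in B6CASTF1 2-cell embryos against 54.9 in G2 zygotes and 296 in C57BL/6J 2-cell embryos against 78.8 in G2 zygotes, higher in both and called in neither (1.69, SE 1.11, adjusted p = 0.18 in B6CASTF1 and 1.91, SE 1.08, adjusted p = 0.13 in C57BL/6J, from the authors' deposited tables). The 10 listed leukocyte genes summed to 497 in B6CASTF1 2-cell embryos against 177 in G2 zygotes, and to 210.0 in C57BL/6J 2-cell embryos against 115 in G2 zygotes. Among their defining genes, Cd3e and Adgre1 were at 0 in every group and Ptprc was under 1 in G2 zygotes and 2-cell embryos of both strains, while Cd68 and Lyz2 were called higher in B6CASTF1 2-cell embryos. Of 13 listed interferon-response genes, 6 of 8 tested rose in B6CASTF1 2-cell embryos (Irf1, Irf7, Isg15, B2m, H2-K1 and H2-D1), and 1 of 6 tested, B2m, rose in those of C57BL/6J, beside 33.1% of all tested genes in B6CASTF1 and 25% in C57BL/6J. The part of leukocyte RNA or of an interferon response in the immunoproteasome values was not tested.

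The earlier steps moved fewer members. From MII eggs to G1 zygotes in C57BL/6J, 2 of 44 members rose and 3 fell, where 1.62% of all tested genes rose and 1.12% fell. All 5 were core genes. Here too the median SE was smaller for members, 0.46 against 1.26 over all tested genes. Psma6 and Psmb7 rose, as given above, and Psma1, Psma2 and Psma5 fell. Psma5 fell to 2325 in G1 zygotes, against 8226 in MII eggs (-1.82, SE 0.29, adjusted p = 1.8e-07, from the authors' deposited table). Psma2 fell to 25383 in G1 zygotes, against 50713 in MII eggs (-0.998, SE 0.21, adjusted p = 1.4e-04, from the authors' deposited table). Psma1 fell to 4792 in G1 zygotes, against 8219 in MII eggs (-0.78, SE 0.24, adjusted p = 0.045, from the authors' deposited table), and its call was lost on recentring (adjusted p = 0.092). None of the base, lid or assembly genes was called at this step, though 2 base genes, 1 assembly gene and 0 lid genes had an unadjusted p under 0.05.

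Between G1 and G2 zygotes, 13 of 46 members rose and 8 fell in B6CASTF1, where 9.63% of all tested genes rose and 9.63% fell. In C57BL/6J, 5 of 44 rose and 2 fell, beside 5.01% and 2.87% of all tested genes. The median SE was smaller for members, 0.20 against 0.57 over all tested genes in B6CASTF1 and 0.46 against 1.23 in C57BL/6J. A smaller SE makes a call easier in either direction. The median log2 fold change of the members was 0.19 in B6CASTF1 and -0.04 in C57BL/6J. The 5 that rose in C57BL/6J, Psma6, Psmb2, Psmb7, Psmc2 and Psmc5, rose in B6CASTF1 too, and made 38.5% of the B6CASTF1 list. No member fell in both. The overlap over all tested genes was not worked out for this step either. In B6CASTF1, 3 ATPase genes of the base rose by similar amounts: Psmc1 (1.85, SE 0.18, adjusted p = 1.1e-23), Psmc5 (1.74, SE 0.20, adjusted p = 6.1e-17) and Psmc2 (1.63, SE 0.19, adjusted p = 3.0e-15), from the authors' deposited table. The same genes had 0.39 (SE 0.44), 1.17 (SE 0.40) and 1.55 (SE 0.39) in C57BL/6J from the authors' deposited table, of which Psmc1 was not called and Psmc5 was not called after recentring (adjusted p = 0.058). Lid genes went both ways in B6CASTF1, with Psmd6, Psmd12 and Psmd14 higher and Psmd3, Psmd7 and Psmd11 lower. Psmd3 fell most, to 509 in G2 zygotes, against 1674 in G1 zygotes (-1.72, SE 0.22, adjusted p = 1.3e-13, from the authors' deposited table). In C57BL/6J the 2 that fell were Psmb5, with 29.3 in G2 zygotes against 87.4 in G1 zygotes (-1.58, SE 0.34, adjusted p = 1.9e-04, from the authors' deposited table), and Psmg2, with 0.375 in G2 zygotes against 29.9 in G1 zygotes.

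**Figure D4:**
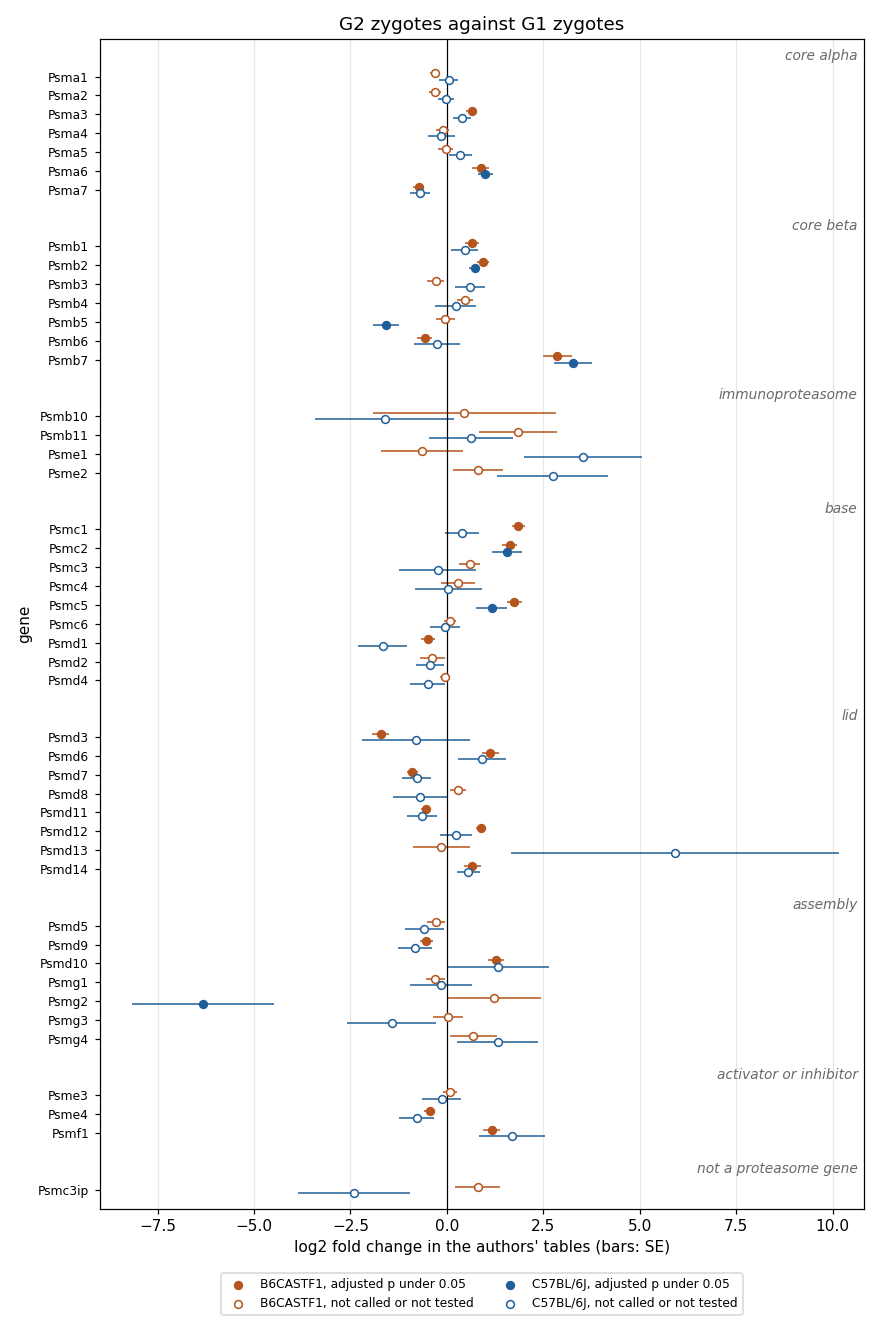
Log2 fold change of G2 over G1 zygotes in the authors' deposited tables (x axis) for the members whose mean normalized count reached 20 in either strain (rows, by class), with bars of 1 SE; filled points have an adjusted p under 0.05 and open points were not called or not tested. Most members lie within 2 of 0, Psmb7 lies right of 2 in B6CASTF1 (orange) and C57BL/6J (blue), and in C57BL/6J Psmg2 lies farthest left and Psmd13, which was not tested there, farthest right.

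The strains were compared step by step, as the B6CASTF1 log2 fold change minus that of C57BL/6J over the combined SE, with a 2-sided normal p and Benjamini-Hochberg adjustment across the genes tested in both. Strain cannot be told apart from library series, since the library numbers in the sample titles differ by strain. At the 2-cell step 0 of 44 members had a higher and 7 a lower fold change in B6CASTF1, where 11.6% of all tested genes were higher and 5.03% lower, and 14 members had an unadjusted p under 0.05. The median difference of the members was -0.32, beside 0.29 over all genes. The 7 were Psmb5 (difference -2.55, SE 0.42, adjusted p = 1.4e-07), Psma7 (-1.38, SE 0.31, adjusted p = 1.8e-04), Psmd2 (-2.29, SE 0.51, adjusted p = 1.8e-04), Psmd11 (-1.49, SE 0.41, adjusted p = 0.0036), Psmc4 (-2.77, SE 0.997, adjusted p = 0.036), Psmb3 (-1.28, SE 0.46, adjusted p = 0.037) and Psmg2. The Psmg2 difference rests on a C57BL/6J G2 zygote level of 0.375, so its size is not given here. The 7 comprised 3 core genes, 2 base genes, 1 lid gene and 1 assembly gene. For Psmb5, the 2-cell levels were 5295 in B6CASTF1 and 3697 in C57BL/6J, and the G2 zygote levels 246 in B6CASTF1 and 29.3 in C57BL/6J, each on its own strain's normalization. At the G2 step 2 members were higher in B6CASTF1 and 0 lower, where 1.04% of all tested genes were higher and 0.879% lower, and 6 members had an unadjusted p under 0.05. They were again Psmb5 (1.53, SE 0.42, adjusted p = 0.021) and Psmg2, with the same limit, and for both genes the differences at the 2 steps share the G2 zygote samples.

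Genes that supply or serve the proteasome were read at the same step. Of a list of 27 such genes found in the tables, 15 of 27 tested rose and 6 fell in B6CASTF1, and 11 of 25 tested rose and 4 fell in C57BL/6J. Over all tested genes 33.1% rose and 26.8% fell in B6CASTF1, and 25% rose and 25.3% fell in C57BL/6J. Rps27a, which encodes ubiquitin fused to a ribosomal protein, rose by a log2 change of 5.75 (SE 0.54) in B6CASTF1 and 5.23 (SE 0.32) in C57BL/6J, from the authors' deposited tables. The activating enzyme gene Uba1 was not called in either strain. The remaining subunit genes outside the name rule, Adrm1 (the ubiquitin receptor Rpn13) and Shfm1 (the small subunit Sem1), rose by 2.46, SE 0.24, adjusted p = 4.5e-24 and 2.18, SE 0.23, adjusted p = 2.5e-20 in B6CASTF1 and by 1.46, SE 0.65, adjusted p = 0.048 and 1.05, SE 0.32, adjusted p = 0.003 in C57BL/6J, from the authors' deposited tables. Pomp, the core maturation protein, rose by 0.79, SE 0.21, adjusted p = 5.0e-04 in B6CASTF1 and was not called in C57BL/6J (0.17, SE 0.26, adjusted p = 0.61), from the authors' deposited tables. AI314180, the symbol for the proteasome adaptor Ecm29, fell in B6CASTF1 (-1.76, SE 0.26, adjusted p = 4.4e-11) and was not called in C57BL/6J (-0.55, SE 0.45, adjusted p = 0.31), from the authors' deposited tables. Vcp, the segregase that extracts substrates, and its cofactor gene Ufd1l rose in both strains, while the other cofactor gene, Nploc4, fell in both. Akirin2, known for importing proteasomes into the nucleus, fell, with log2 fold changes of -1.57, SE 0.17, adjusted p = 6.7e-19 in B6CASTF1 and -2.26, SE 0.38, adjusted p = 1.7e-08 in C57BL/6J, from the authors' deposited tables. Nfe2l1, the transcription factor that raises proteasome genes when the protease is blocked, fell in C57BL/6J (-2.19, SE 0.57, adjusted p = 4.8e-04) and was not called in B6CASTF1 (-0.74, SE 0.37, adjusted p = 0.074), from the authors' deposited tables. Its relative Nfe2l2 was not called in B6CASTF1 (0.12, SE 0.30, adjusted p = 0.74) and rose in C57BL/6J (1.70, SE 0.57, adjusted p = 0.0079), from the authors' deposited tables.

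Promoters were compared for letters that known regulators bind. In RefSeq (GRCm38.p6), 42 of the 50 members had a window of 250 bases before to 50 after the start, 45 windows in all. The ETS letters CCGGAAG, read on both strands, stood in 35.6% of the members' windows, beside 8.86% of all 32851 windows and 14.5% of those of tested genes. By class they were in 5 of 8 base genes and 4 of 6 lid genes with a window, and in 1 of 7 core alpha and 0 of 4 core beta genes. CCAAT, the letters of NF-Y, stood in 33.3% of members' windows, 37.4% of all windows and 38.2% of those of tested genes, with 5 of the 7 core alpha genes among them. The antioxidant response element TGACNNNGC, known for Nfe2l1 and Nfe2l2, stood in 13.3% of members' windows, 12.4% of all and 13.99% of those of tested genes, and the Nr5a letters CAAGGNCA, for the receptor family named in the title of the series, in 8.89%, 6.71% and 5.37%. Of the 20 members with a window that rose in both strains at the 2-cell step, 9 held the ETS letters, and 6 of the other 22 did. A match is a run of letters and shows no binding. The 4 windows below belong to members described above and show the 4 kinds of letters, which are in capitals: the response element and the Nr5a letters in Psmb5 (chr14:54617946-54618245, minus strand), ETS and CCAAT letters in Psmc2 (chr5:21785025-21785324, plus strand), the response element and ETS letters in Psmd12 (chr11:107479278-107479577, plus strand), and CCAAT in Psma7 (chr2:180042415-180042714, minus strand), the gene that fell.
Psmb5: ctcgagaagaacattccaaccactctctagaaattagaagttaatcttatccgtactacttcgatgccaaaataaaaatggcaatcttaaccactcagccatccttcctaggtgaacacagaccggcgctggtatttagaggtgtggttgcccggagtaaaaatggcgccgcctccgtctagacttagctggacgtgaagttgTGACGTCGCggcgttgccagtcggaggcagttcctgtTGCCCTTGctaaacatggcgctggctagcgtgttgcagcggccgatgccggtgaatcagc
Psmc2: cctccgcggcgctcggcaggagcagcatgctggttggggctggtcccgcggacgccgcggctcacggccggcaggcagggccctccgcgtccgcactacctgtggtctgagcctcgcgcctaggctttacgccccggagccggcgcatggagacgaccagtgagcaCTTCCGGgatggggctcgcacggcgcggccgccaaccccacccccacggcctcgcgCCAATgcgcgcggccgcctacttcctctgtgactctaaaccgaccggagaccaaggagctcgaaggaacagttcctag
Psmd12: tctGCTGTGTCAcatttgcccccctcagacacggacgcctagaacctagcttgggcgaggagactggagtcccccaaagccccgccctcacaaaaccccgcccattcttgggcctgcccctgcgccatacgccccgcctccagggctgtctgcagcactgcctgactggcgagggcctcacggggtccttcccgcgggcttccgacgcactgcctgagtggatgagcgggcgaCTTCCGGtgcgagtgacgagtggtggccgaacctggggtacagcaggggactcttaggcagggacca
Psma7: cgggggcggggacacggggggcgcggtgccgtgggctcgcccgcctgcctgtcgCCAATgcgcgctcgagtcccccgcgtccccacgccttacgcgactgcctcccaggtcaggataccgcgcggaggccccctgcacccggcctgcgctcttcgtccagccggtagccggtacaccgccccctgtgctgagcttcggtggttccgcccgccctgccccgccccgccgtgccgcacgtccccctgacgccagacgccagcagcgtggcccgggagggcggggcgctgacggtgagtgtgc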

How the data were processed

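Poly(A) RNA was measured by Smart-seq2 in 20 samples of 7 groups, per the labels' protocols. The authors' tools included kallisto, TopHat, Picard, bcl2fastq and DESeq2, and their genome build was mm10, per the submitters' processing notes, where no tool is tied to a value. The names of the authors' 5 tables give DESeq2 1.18.1 as their source. Each deposited table holds, per the file headers, the mean normalized count over a strain's libraries (a signal), the log2 fold change, its SE and Wald statistic (both scores here), a shrunken log2 fold change, and the p-value with its adjusted form. The annotation and the use of strand were not stated in any source used here.

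A gene was called when the authors' adjusted p was under 0.05, and genes whose p or adjusted p the authors left blank were taken as untested. No test per sample could be run. Levels per stage were worked out from the strain's mean count and fold changes, weighted by samples per stage, and divided by the longest coding transcript of GENCODE M21 (GRCm38, the same assembly as mm10) where levels of genes are compared; all 50 members matched it. The authors' fold changes of the 2 strains were compared over their combined SE, with a normal p and Benjamini-Hochberg adjustment over 12517 and 12573 genes. This step was run on simulated data whose normal noise was drawn with those same SEs. Such a run cannot show whether the SEs or the normal p hold for so few samples.

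Total reads per library are unknown. Smallest steps of the mean counts (1 read in 1 library) gave the relative size factors: 83.6% of 513 B6CASTF1 genes and 76.6% of 683 C57BL/6J genes with a mean count under 0.5 were whole reads in at most 3 libraries, within 1e-09 reads. The search stopped at the number of samples that the labels give each group, 2 for B6CASTF1 2-cell embryos, so it is no separate count of libraries. All columns used were mapped, with 0 left over.

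The members, classes and lists were chosen with earlier results of these data known. By rule, any member past the threshold, the member with the smallest p of each class and listed genes past the threshold could be named; the other members and genes were named after their values were seen. Alternatives were an adjusted p under 0.01, a minimum mean count of 100, a log2 fold change of at least 1 in size, recentring on the median gene, an SE raised 1.5 times, the direction of the shrunken log2 fold change and, added after the data were seen, other transcript lengths. Scripts ran in Python 3.11.15 with scipy 1.17.1, pandas 2.3.3, numpy 2.4.6 and matplotlib 3.10.9. Some genes counted in the pathway and marker lists are not reported here by name.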

Additional observations from a re-analysis of the deposited data

Results flagged for a closer look

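A total of 9 member values differed between the strains by the test of the difference itself, all with a B6CASTF1 minus C57BL/6J log2 fold change past an adjusted p of 0.05. At the G2 against G1 step, Psmb5 (difference 1.53, SE 0.42, adjusted p = 0.021) and Psmg2 (7.54, SE 2.20, adjusted p = 0.036) were higher in B6CASTF1. At the 2-cell step, Psma7 (-1.38, SE 0.31, adjusted p = 1.8e-04), Psmb3 (-1.28, SE 0.46, adjusted p = 0.037), Psmb5 (-2.55, SE 0.42, adjusted p = 1.4e-07), Psmc4 (-2.77, SE 0.997, adjusted p = 0.036), Psmd11 (-1.49, SE 0.41, adjusted p = 0.0036), Psmd2 (-2.29, SE 0.51, adjusted p = 1.8e-04) and Psmg2 (-6.04, SE 2.25, adjusted p = 0.045) were lower in B6CASTF1. The part of strain and of library series in these differences cannot be told apart. The size of both differences of Psmg2 is not a reliable measure, since they rest on an implied level of 0.375 in C57BL/6J G2 zygotes, against 27.2 in those of B6CASTF1.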

How the results depend on the processing

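No called result reversed under any alternative that was run. Recentring did turn the sign of some uncalled changes near 0. Among them were Psmb1 (-0.056 to 0.017) and Psmb5 (-0.0082 to 0.065) at the G1 against MII step. With the SE raised 1.5 times, the G1 against MII step had 1 member higher and 1 lower (2 and 3 as reported), the C57BL/6J G2 step 2 higher and 0 lower (5 and 2), the C57BL/6J 2-cell step 1 lower (4), the B6CASTF1 G2 step 3 lower (8), and the strain differences came to 0 higher at the G2 step (2) and 1 lower at the 2-cell step (7). With an adjusted p under 0.01, 1 member was lower at the C57BL/6J G2 step, 2 were lower at the C57BL/6J 2-cell step, and the strain differences came to 0 higher at the G2 step and 4 lower at the 2-cell step. A minimum absolute log2 fold change of 1 left 1 lower at the G1 against MII step, 3 higher at the C57BL/6J G2 step, and 7 higher and 1 lower at the B6CASTF1 G2 step (13 and 8). A minimum mean count of 100 left 1 lower at the C57BL/6J G2 step and 1 higher strain difference at the G2 step. A larger SE or a stricter threshold calls fewer genes by construction. The other counts stayed within 1.5 times, with 22 to 27 members rising at the 2-cell step in C57BL/6J and 26 to 32 in B6CASTF1. Of the members' own values, 41 calls were lost with the larger SE and 20 under the stricter p, and recentring lost 10 and gained 3. Weighting the B6CASTF1 2-cell group as 3 libraries changed levels by factors of 0.751 to 1.11. No paired analysis was possible because the labels give no replicate numbers and the tables no value of any single sample, so leaving out a replicate was not possible either. Low size factors in C57BL/6J 2-cell libraries limit what can be seen for scarce members there.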

Other observations

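Psmc3ip, the meiotic recombination factor taken in by its name, had 3477 in B6CASTF1 2-cell embryos, against 99.9 in G2 zygotes (5.12, SE 0.63, adjusted p = 4.2e-15, from the authors' deposited table). In C57BL/6J it had 1525 in 2-cell embryos, against 15.9 in G2 zygotes (6.58, SE 1.45, adjusted p = 2.6e-05, from the authors' deposited table). Its exons overlap Mlx on the other strand. Ngly1 and Ddi2, which process Nfe2l1, fell in B6CASTF1 2-cell embryos (-3.46, SE 0.25, adjusted p = 2.1e-43 and -1.64, SE 0.40, adjusted p = 1.3e-04, from the authors' deposited table), while in C57BL/6J Ngly1 has no p-value and Ddi2 was not called. Of the 5 shuttle genes listed, Rad23b fell in both strains (-1.18, SE 0.26, adjusted p = 1.4e-05 in B6CASTF1 and -1.17, SE 0.42, adjusted p = 0.012 in C57BL/6J, from the authors' deposited tables). Ubqln1 rose in B6CASTF1 (0.85, SE 0.16, adjusted p = 2.8e-07) and was not called in C57BL/6J (-0.32, SE 0.52, adjusted p = 0.65), from the authors' deposited tables. Ubqln4 was called higher in C57BL/6J, with 125 in 2-cell embryos against 1.44 in G2 zygotes (adjusted p = 0.017, from the authors' deposited table), and was not called in B6CASTF1, with 103 in 2-cell embryos against 33.5 in G2 zygotes.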
